A study of Homo sapiens with 8 samples.

Results

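Ribosomes are built in the nucleolus, and the 34 genes described here encode RNA polymerase I, its initiation factors and the proteins that modify, cut and assemble its product. They were chosen by symbol as a named list. All 34 are among the 62826 genes in the deposited count tables, and all 34 passed the filter on low counts that 19785 genes passed. The cells were LUHMES, an established line of immortalised human mesencephalic cells of wild-type genotype. Differentiation took 6 days and used tetracycline (1 µg/mL), dbcAMP (1 mM) and GDNF (2 ng/mL). Treated cells received antimycin A (25 µM), which blocks complex III of the respiratory chain, and oligomycin (10 µM), which blocks the ATP synthase, for 8 h, and vehicle cells received DMSO. Each group had 4 libraries of polyadenylated RNA, numbered 2 to 5, and the series text describes them as independent batches of cells with 4 technical replicates each. LUHMES cells carry a v-myc transgene that tetracycline switches off, and they come from 1 line. The question was how the genes of the ribosome factory stood after 8 h of mitochondrial block.

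RNA polymerase I (Pol I) makes a single long precursor from the ribosomal DNA, which is cut and trimmed into the 18S, 5.8S and 28S ribosomal RNAs. Selectivity factor SL1, made of TBP and the TAF1 proteins, marks the promoter, UBTF shapes the active ribosomal DNA, and RRN3 delivers an initiation-competent polymerase. Small nucleolar RNPs (snoRNPs) then methylate or pseudouridylate the precursor while small and large subunit assembly factors fold it onto ribosomal proteins, and in many cells MYC raises transcription of many of these genes through the E-box CACGTG.

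That E-box stood in several members' promoters, so the stretch from 120 bases before to 25 bases after the RefSeq start is printed for 5 members that hold it there and for the pair of SL1 genes whose transcripts rose most, which hold none. Capitals mark the E-box, each line reads 5′ to 3′ on the gene's strand, and the coordinates are on build GRCh38.p14. A RefSeq start can lie inside the longer span that GENCODE gives a gene, as for TAF1D and PES1. FBL lies on the minus strand at chr19:39846355-39846499, NOP14 on the minus strand at chr4:2963382-2963526, PES1 on the minus strand at chr22:30591886-30592030, RRP9 on the minus strand at chr3:51941880-51942024 and NOP10 on the minus strand at chr15:34343112-34343256. TAF1A lies on the minus strand at chr1:222589909-222590053 and TAF1D on the minus strand at chr11:93741471-93741615.
FBL: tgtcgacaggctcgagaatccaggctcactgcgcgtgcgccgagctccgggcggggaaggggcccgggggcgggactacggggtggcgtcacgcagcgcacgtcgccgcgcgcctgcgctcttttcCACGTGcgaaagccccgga
NOP14: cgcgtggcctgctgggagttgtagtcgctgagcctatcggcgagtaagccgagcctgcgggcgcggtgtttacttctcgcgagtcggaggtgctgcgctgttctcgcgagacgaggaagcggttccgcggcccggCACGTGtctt
PES1: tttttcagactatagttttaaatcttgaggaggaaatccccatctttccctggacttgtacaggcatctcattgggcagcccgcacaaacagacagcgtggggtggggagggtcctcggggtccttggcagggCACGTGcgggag
RRP9: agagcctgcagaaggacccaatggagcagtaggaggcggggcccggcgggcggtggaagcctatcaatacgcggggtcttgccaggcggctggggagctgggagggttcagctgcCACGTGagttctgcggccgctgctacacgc
NOP10: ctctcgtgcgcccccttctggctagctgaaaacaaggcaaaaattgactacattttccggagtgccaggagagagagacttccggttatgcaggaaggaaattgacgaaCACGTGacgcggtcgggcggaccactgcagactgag
TAF1A: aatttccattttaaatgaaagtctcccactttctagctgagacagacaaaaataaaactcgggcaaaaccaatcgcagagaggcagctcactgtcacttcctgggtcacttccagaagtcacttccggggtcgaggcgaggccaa
TAF1D: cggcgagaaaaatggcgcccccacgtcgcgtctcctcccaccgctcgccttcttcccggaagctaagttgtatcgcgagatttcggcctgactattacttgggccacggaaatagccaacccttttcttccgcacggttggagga

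Of the 34 members, 29 have an entry in the RefSeq promoter table, which covers 250 bases before to 50 bases after each start. CACGTG, which reads the same on both strands, was found in 7 of these 29 promoters (24.1%), against 7.43% of all 27305 promoters in the table and 9.83% of the 12714 promoters of genes tested. Among the related genes listed further down it was found in 42 of 148 promoters (28.4%). Its first base, counted from the start as +1, stood at +7 in FBL, +36 in NOP2, +16 in NOP14, +29 in LTV1, +14 in PES1, −5 in RRP9, and −170 and −11 in NOP10. Of these 7 genes, FBL and NOP2 rose, NOP14 fell, and LTV1, PES1, RRP9 and NOP10 did not pass the test. The calls of FBL and NOP14 held only under some settings, and a link between the motif and direction was not tested. The 8-letter motif TGATGNAA, searched on both strands and found in 3.67% of all promoters, had no match in the 29 windows. TGACGTCA, found in 1.98% of all promoters, had no match there either.

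The libraries held between 93718000 and 110021000 estimated reads each, with similar ranges in both groups. Vehicle replicate 2 stood apart: mitochondrially encoded mRNAs took 11.5% of its reads, against 3.27% to 4.33% in the other vehicle libraries and 2.14% to 2.90% in treated ones. It was also the highest or lowest vehicle library for several members, and the value without it is given for some of them. Neuronal markers were abundant, with a summed level of 5508 to 5854 CPM (counts scaled to a common library total) in vehicle and 4584 to 4640 CPM in treated libraries. The label of dopaminergic neurons is met in part: SLC6A3, the dopamine transporter, stood at 589 ± 69.4 CPM in vehicle and 570 ± 69.6 CPM in treated cells, TH at 7.48 ± 1.34 CPM in vehicle and 15.4 ± 3.1 CPM in treated cells, LMX1A at 0 in all 8 libraries, and FOXA2, PITX3 and SLC18A2 at or below 0.198 CPM in each. The list of 10 dopaminergic markers also holds DDC, NR4A2, EN1 and LMX1B. Of its 6 genes that passed the filter on low counts, 1 rose, 2 fell and 3 did not pass the test. Of all genes tested, 27.7% rose and 30.2% fell. GFAP, the astrocyte marker, was at 0 in 7 libraries, and the 5 microglial markers summed to at most 0.142 CPM. Bulk libraries cannot tell fewer cells of a type from less RNA per cell.

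Measured against the whole transcriptome, the ribosome biogenesis genes moved little and in both directions. In the edgeR quasi-likelihood test, with p adjusted over all genes and called below 0.05, 8 members rose, 7 fell and 19 did not pass. That is 44.1% of the members, against 57.9% of all genes tested (27.7% higher and 30.2% lower) and 59.1% of the 9788 genes at or above the level of the lowest member. The median member changed by 0.18 in either direction on the log2 scale, against 0.41 over all genes tested and 0.29 over those 9788 genes. The median signed change was 0.04 for the members and −0.02 for all genes. TAF1A, TAF1D and RRS1 changed by 1 or more on the log2 scale. That is 8.82% of the members, against 17.7% of all genes tested and 6.22% of those 9788 genes. Below 0.35 stayed 28 of the 34, a limit for which the share over all genes was not computed. The groups did not overlap for 15 members, 8 higher and 7 lower in treated cells, or 44.1% against 53.4% of all genes tested. The members together took 0.315% ± 0.0127 of reads in vehicle and 0.308% ± 0.0115 in treated libraries (SD, n = 4 each). In the authors' deposited table of coding genes, 14 members pass a false discovery rate of 0.05 (6 higher, 8 lower), against 57.7% of its 12898 genes, and all 34 carry the same sign as here.

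**Figure D1:**
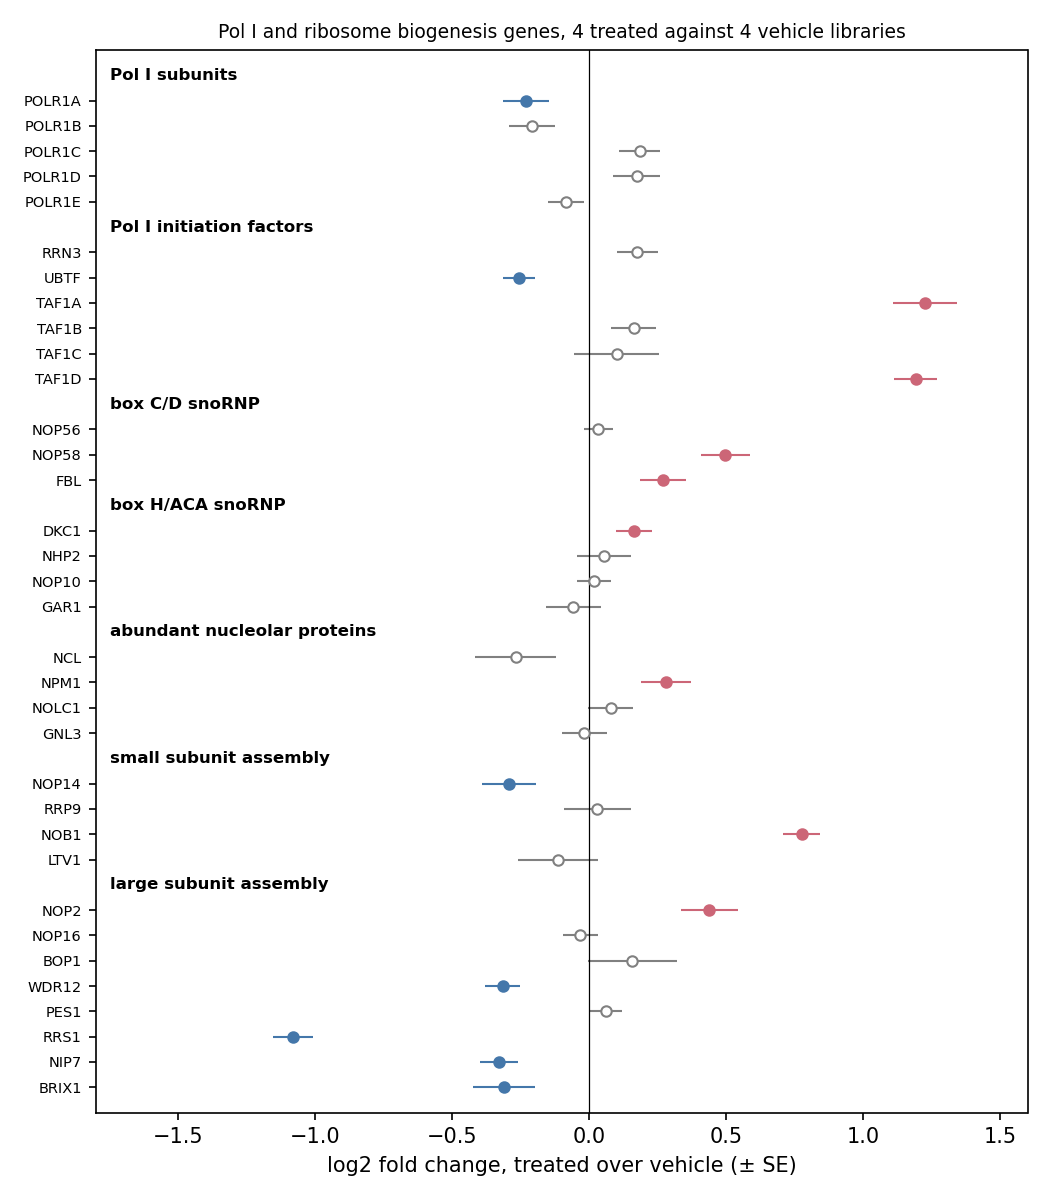
Log2 fold changes, treated over vehicle (x axis, ± SE), for the 34 members, grouped by role, with filled points for adjusted p below 0.05 (red higher, blue lower) and open points for the rest. TAF1A and TAF1D stand at 1.23 and 1.19, RRS1 at −1.08, and most other members lie close to 0.

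The calls were not equally firm. TAF1A, TAF1D, NOP58, NOB1, NOP2 and RRS1 passed under all 16 other settings tried, and UBTF and NIP7 under all but the test against a minimum fold of 1.2. The other 7 calls, POLR1A, FBL, DKC1, NPM1, NOP14, WDR12 and BRIX1, were lost under that minimum fold and under further settings, the deciding ones named with each gene. Counts of calls moved accordingly. Scaling by library totals gave 5 higher and 9 lower members. Leaving out vehicle replicate 3 or treated replicate 4 gave 5 higher, and leaving out treated replicate 2 or 3 gave 4 lower. Against the minimum fold of 1.2, which 40.2% of all genes tested passed (18.9% higher, 21.3% lower), 5 members were higher and 1 was lower: TAF1A, TAF1D, NOP58, NOB1 and NOP2 against RRS1.

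The 5 polymerase subunits among the members moved little, with 1 fall, against 30.2% lower of all genes tested. Among the related genes given further down, the Pol I subunits POLR1G (log2 −0.96) and POLR1F fell by more. Libraries are given below in the order of their numbers 2, 3, 4 and 5. POLR1A, the largest catalytic subunit, stood at 102, 105, 116 and 129 CPM in vehicle and at 88.2, 98.3, 98.2 and 99.8 CPM in treated libraries. Its treated libraries all lay below the vehicle ones, with replicate 2 the lowest, a log2 fold change of −0.23 ± 0.08 (SE) and an adjusted p of 0.0352. The call was lost without vehicle replicate 4 or 5 or treated replicate 2, 3 or 4 (adjusted p 0.0642 to 0.103), with RLE size factors (adjusted p 0.0552), and with an offset for effective length (adjusted p 0.0576). POLR1B, the second catalytic subunit, was 51.1 ± 4.26 CPM in vehicle and 44.2 ± 3.63 CPM in treated cells (SD, n = 4 each; log2 fold change −0.21 ± 0.08, adjusted p 0.0529), and it passed without vehicle replicate 2 (−0.26, adjusted p 0.00835). POLR1C and POLR1D, the assembly subunits that Pol I shares with RNA polymerase III, were at 0.18 ± 0.07 and 0.17 ± 0.09 on the log2 scale, with adjusted p of 0.0539 and 0.11. POLR1D passed without vehicle replicate 2, whose 99.2 CPM stood above 76.4 to 80.1 CPM in the other vehicle libraries (0.26, adjusted p 0.00170). POLR1E, a subunit of the polymerase-associated heterodimer, was at −0.09 ± 0.07 (adjusted p 0.297) and passed only without vehicle replicate 2 (−0.13, adjusted p 0.0371).

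Transcript ratios between partners of one complex were added after seeing the data, as 28 pairs compared by the exact two-sided permutation test over 70 assignments, whose smallest p is 0.0286. In 11 of the 28 pairs the groups did not overlap (exact p = 0.0286), and none passed after adjustment over the 28 (lowest adjusted p 0.0727). The share among ratios of other genes was not computed, so this count does not set the complexes apart. For levels of single genes, the groups did not overlap in 53.4% of all genes tested. POLR1A relative to POLR1C was lower in treated cells by a log2 difference of −0.41 and POLR1B relative to POLR1C by −0.39, both without overlap. POLR1A and POLR1B kept their ratio within the spread of the libraries (difference −0.02, exact p = 0.714).

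The initiation factors held the largest rises of the whole list, and these were in SL1. TAF1A, at chr1:222557902-222589933 on the minus strand of hg38, stood at 6.07, 6.38, 8.16 and 7.37 CPM in vehicle and at 15.0, 14.8, 17.3 and 18.4 CPM in treated libraries. Every treated library was above every vehicle one, and the rise was 2.34-fold (log2 1.23 ± 0.12, adjusted p 1.2e-05). TAF1D, at chr11:93729948-93784391 on the minus strand, stood at 64.9, 55.7, 56.0 and 51.4 CPM in vehicle and at 123, 128, 131 and 139 CPM in treated libraries. It rose 2.29-fold without overlap (log2 1.19 ± 0.08, adjusted p 1.2e-06). The other SL1-specific subunits did not follow: TAF1B was 12.2 ± 0.545 CPM in vehicle and 13.6 ± 1.3 CPM in treated cells (log2 0.16 ± 0.08, adjusted p 0.12). TAF1C was 71.2 ± 13.3 CPM in vehicle and 76.3 ± 12.6 CPM in treated cells (log2 0.10 ± 0.15, adjusted p 0.602), with vehicle replicate 2 and treated replicate 5 the low libraries. Without vehicle replicate 2 its difference was −0.03 (adjusted p 0.851).

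Within SL1 the partner ratios restate this split, since they are taken from the same counts and are not separate evidence. TAF1A relative to TAF1B was higher in treated cells by a log2 difference of 1.07 and relative to TAF1C by 1.12, and TAF1B and TAF1C relative to TAF1D differed by −1.04 and −1.09, each without overlap (exact p = 0.0286, adjusted p 0.0727). TAF1A relative to TAF1D did not differ beyond the spread of the libraries (0.03, exact p = 0.886). TAF1A was the scarcest member per length in vehicle cells, at 9.74 ± 2.33 TPM, and reached 21.6 ± 2.08 TPM in treated cells, which is above POLR1A at 17.0 ± 1.95 TPM. TAF1D overlaps CEP295, MED17 and C11orf54 on the opposite strand and TAF1A overlaps TAF1A-AS1. No source used here says whether reads were counted by strand, and the part of antisense reads in these rises was not tested.

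UBTF, the architectural factor of active ribosomal DNA, stood at 152, 140, 139 and 137 CPM in vehicle and at 114, 121, 123 and 117 CPM in treated libraries. It fell without overlap (log2 −0.26 ± 0.06, adjusted p 0.00337), and kept the call under each setting except the minimum fold of 1.2 (adjusted p 0.440). RRN3, the factor that couples the polymerase to SL1, was 110 ± 8.29 CPM in vehicle and 124 ± 8.11 CPM in treated cells (log2 0.17 ± 0.07, adjusted p 0.0676), and passed without treated replicate 2 (0.21, adjusted p 0.0465). RRN3 has 2 named pseudogenes, with which it may share reads.

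**Figure D2:**
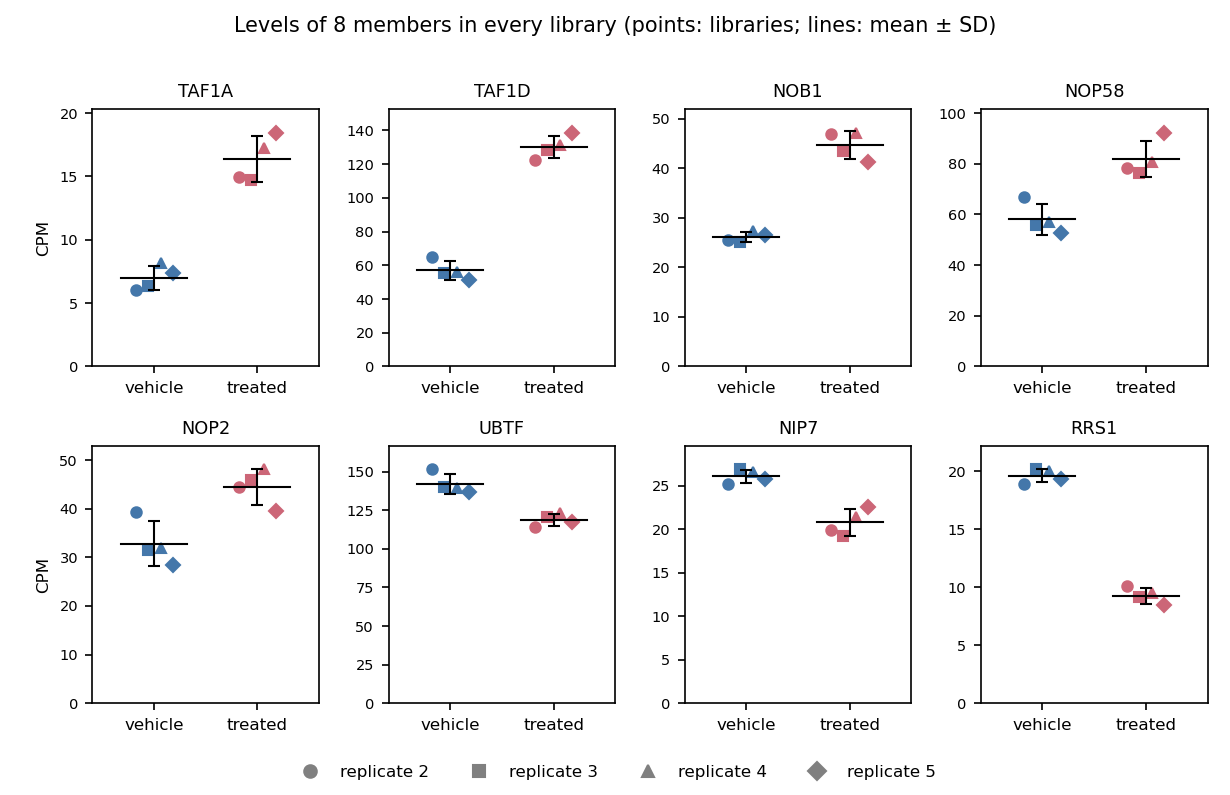
Levels in CPM (y axes from 0) of 8 members in the 4 vehicle (blue) and 4 treated (red) libraries, with symbols for the replicate number and lines for mean ± SD. TAF1A and TAF1D rise more than 2-fold, RRS1 stands at 8.43 to 10.1 CPM in the treated libraries, and the groups overlap for none of the 8 genes.

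Among the snoRNP proteins, parts of the box C/D methylation machinery rose and the box H/ACA pseudouridylation machinery changed little. NOP58, a scaffold of box C/D particles, stood at 66.8, 55.9, 57.0 and 52.6 CPM in vehicle and at 78.2, 76.4, 80.8 and 92.2 CPM in treated libraries. It rose 1.41-fold without overlap, with vehicle replicate 2 closest to the treated group (log2 0.50 ± 0.09, adjusted p 8.7e-04). Its paralogous partner NOP56 was at 112 ± 1.76 CPM in vehicle and 114 ± 3.91 CPM in treated cells (log2 0.03 ± 0.05, adjusted p 0.615), and the log2 ratio of NOP56 to NOP58 differed by −0.46 between the groups (exact p = 0.0286, adjusted p 0.0727). FBL, the methyltransferase of the same particle, stood at 61.1, 67.9, 77.6 and 75.0 CPM in vehicle and at 86.7, 81.3, 91.2 and 79.7 CPM in treated libraries. The rise of FBL was small and without overlap (log2 0.27 ± 0.08, adjusted p 0.0198). It was lost without vehicle replicate 3 (adjusted p 0.0569), without treated replicate 4 (adjusted p 0.0599), and under scaling by library totals (0.17, adjusted p 0.176).

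DKC1, the pseudouridine synthase of box H/ACA particles and of telomerase, passed by a narrow margin. It was 52.9 ± 1.17 CPM in vehicle and 59.2 ± 3.99 CPM in treated cells, and its groups came closest at 54.1 CPM in vehicle replicate 2 and 55.8 CPM in treated replicate 3 (log2 0.16 ± 0.06, adjusted p 0.0494). The call was lost under 10 of the 16 other settings. These included leaving out vehicle replicate 3, 4 or 5 or treated replicate 4 or 5 (adjusted p 0.0778 to 0.124) and scaling by library totals (0.07, adjusted p 0.425). Its partners NHP2, NOP10 and GAR1, small structural proteins of the same particle, were at 0.05 ± 0.10, 0.02 ± 0.06 and −0.06 ± 0.10 on the log2 scale, with adjusted p of 0.669, 0.842 and 0.639. Without vehicle replicate 2, NHP2 was at −0.05 (adjusted p 0.423). NOP10 was among the steadiest members, at 41.2, 40.7, 41.8 and 41.8 CPM in vehicle and 43.4, 41.1, 44.1 and 38.7 CPM in treated libraries.

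Several members hold annotated snoRNAs within their GENCODE span on the same strand: TAF1D 8, GNL3 6, NOP56 5, NOP58 4, NCL 3, DKC1 2 and POLR1C 1. Whether each lies in an intron was not examined. Of these 7 genes, TAF1D, NOP58 and, by a narrow margin, DKC1 rose and the other 4 did not pass. Over all genes tested, 27.7% were higher and 30.2% lower. Libraries of polyadenylated RNA do not measure the snoRNAs themselves.

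Nucleolin and nucleophosmin, the abundant histone- and RNA-binding proteins of the nucleolus, held the highest levels of the list per length. NPM1 was at 1113 ± 86.5 TPM in vehicle and 1321 ± 80.6 TPM in treated cells, and NCL at 501 ± 59.9 and 403 ± 27.3 TPM (SD, n = 4 each). NPM1 read counts were 699, 537, 580 and 556 CPM in vehicle and 701, 664, 730 and 784 CPM in treated libraries. Vehicle replicate 2 overlapped the treated group. The rise (log2 0.28 ± 0.09, adjusted p 0.0241) was 0.37 without that library (adjusted p 6.9e-04). It was lost without vehicle replicate 3, 4 or 5, without treated replicate 4 or 5 (adjusted p 0.0540 to 0.0752), or under library totals (0.19, adjusted p 0.0611). NPM1 has 45 named pseudogenes, with which its transcripts may share reads.

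NCL stood at 926, 579, 597 and 556 CPM in vehicle and at 531, 536, 560 and 579 CPM in treated libraries. A single vehicle library, replicate 2, was far above all 7 others, and the difference did not pass (log2 −0.27 ± 0.15, adjusted p 0.145). Without that library it was at −0.07. NOLC1, a nucleolar chaperone of snoRNPs, and GNL3, the nucleolar GTPase also called nucleostemin, were at 0.08 ± 0.08 and −0.02 ± 0.08 on the log2 scale, with adjusted p of 0.432 and 0.861. Vehicle replicate 2 was the highest vehicle library for both, and without it they were at 0.14 and 0.05 (adjusted p 0.0908 and 0.534).

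Among the 4 members of small subunit assembly, NOB1 changed most. NOB1, the endonuclease that makes the final cut of 18S rRNA in the cytoplasm, lies at chr16:69741867-69754940 on the minus strand of hg38. It stood at 25.5, 25.2, 27.3 and 26.5 CPM in vehicle and at 46.9, 43.4, 47.2 and 41.2 CPM in treated libraries. All treated libraries were above all vehicle ones, and the rise was 1.71-fold (log2 0.77 ± 0.07, adjusted p 7.0e-06). NOB1 overlaps AC092115.3 on the opposite strand. NOP14, a component of the early small subunit processome, stood at 83.8, 61.0, 67.2 and 62.3 CPM in vehicle and at 55.4, 55.4, 58.9 and 53.8 CPM in treated libraries.

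NOP14 fell without overlap (log2 −0.29 ± 0.10, adjusted p 0.026). Its high library was vehicle replicate 2, and without it the difference was −0.19 with an adjusted p of 0.0156. The call was lost without treated replicate 2, 3 or 5 (adjusted p 0.0594 to 0.0620). NOP14 overlaps NOP14-AS1 on the opposite strand. RRP9, the U3 snoRNP protein, was at 0.03 ± 0.12 and LTV1, an export and maturation factor of the small subunit, at −0.12 ± 0.15 on the log2 scale (adjusted p 0.847 and 0.524). Without vehicle replicate 2, RRP9 was at −0.07 and LTV1 at 0.04 (adjusted p 0.577 and 0.715).

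Of the 8 members in large subunit assembly, the largest of the roles, 4 fell and 1 rose, against 30.2% lower and 27.7% higher of all genes tested. Among the 4 falls, that of RRS1 held under all 16 other settings. RRS1, which helps to bring the 5S RNP into the pre-60S particle, stood at 18.9, 20.2, 20.1 and 19.4 CPM in vehicle and at 10.1, 9.12, 9.46 and 8.43 CPM in treated libraries. It fell 2.12-fold (log2 −1.08 ± 0.07, adjusted p 1.4e-06), with narrow spread in both groups. BRIX1, a Brix-domain factor of early pre-60S particles, stood at 33.4, 24.5, 26.1 and 25.4 CPM in vehicle and at 20.3, 19.9, 24.5 and 23.4 CPM in treated libraries.

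BRIX1 fell by a smaller amount (log2 −0.31 ± 0.11, adjusted p 0.0364), and the groups touched at 24.5 CPM. Without vehicle replicate 2, its highest library, the difference was −0.20 with an adjusted p of 0.0507, and the call was also lost without treated replicate 2 or 3 (adjusted p 0.0991 and 0.105) and with RLE size factors (adjusted p 0.0525). NIP7, a pre-rRNA-binding factor at chr16:69337996-69343111 on the plus strand, stood at 25.2, 26.8, 26.5 and 25.8 CPM in vehicle and at 19.9, 19.2, 21.4 and 22.6 CPM in treated libraries. It fell 1.26-fold without overlap (log2 −0.33 ± 0.07, adjusted p 0.00252).

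The PeBoW complex, made of PES1, BOP1 and WDR12 and required for processing of the 28S precursor, had 1 falling member. WDR12 stood at 54.4, 50.6, 52.2 and 51.7 CPM in vehicle and at 39.6, 40.7, 41.8 and 45.7 CPM in treated libraries. It fell without overlap (log2 −0.32 ± 0.06, adjusted p 0.00191), and the call was lost once counts were offset by effective transcript length (−0.19, adjusted p 0.171). PES1 was at 64.3 ± 1.33 CPM in vehicle and 67.0 ± 3.51 CPM in treated cells (log2 0.06 ± 0.06, adjusted p 0.41), and its log2 ratio to WDR12 was higher by 0.38 in treated cells (exact p = 0.0286, adjusted p 0.0727).

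BOP1 was at 0.16 ± 0.16 on the log2 scale (adjusted p 0.428), with vehicle replicate 2 at 41.0 CPM and treated replicate 5 at 51.9 CPM below all other libraries. Without vehicle replicate 2 the BOP1 difference was 0.01 (adjusted p 0.928). NOP2, the methyltransferase of 28S rRNA used as a proliferation antigen, was the one member of this group to rise. It stood at 39.4, 31.6, 31.95 and 28.5 CPM in vehicle and at 44.4, 45.9, 48.1 and 39.5 CPM in treated libraries. The lowest treated library was just above the highest vehicle one, which was replicate 2 (log2 0.44 ± 0.10, adjusted p 0.00446). NOP16, a pre-60S factor, was at −0.03 ± 0.06 (adjusted p 0.685), with all 8 libraries between 10.7 and 11.5 CPM.

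The deposited transcript tables show from which kinds of transcript these reads came. Of the 34 genes, 30 kept at least 2 transcripts with 10 reads in 4 libraries, and none passed the Simes test of transcript usage in edgeR, against 8.61% of 11746 genes. At an unadjusted p below 0.05 there were 3. In simulated data this test missed most usage changes and made more false calls than the same test with the stricter filter given below, so the absence of calls says little. The gene-level F test on the same transcripts called 7 of the 30, against 25.8% of those genes. With transcripts kept only at 10 reads in all 8 libraries, the Simes test called 12 of the 30, against 24.5% of 9898 genes. Among the 12 were UBTF (adjusted p 0.00171), TAF1A (adjusted p 0.00236) and TAF1D (adjusted p 0.00907). In simulated data this stricter form found 19% of 1.5-fold and 89% of 2-fold changes and made 54 false calls. That is a larger part of its calls than the threshold of 0.05 allows, so these adjusted p-values may be too small.

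Because of this, shares of a gene's reads were summed by annotated transcript type in each library, an addition made after seeing the data, with 58 comparisons by the exact permutation test. The shares are of reads in transcripts found in GENCODE release 29, which hold only 45.2% of the reads of WDR12, 47.3% for NCL and 69.5% for DKC1. WDR12 and NCL are among the members counted below, with overlapping groups. Where groups do not overlap the exact p is 0.0286 and the p adjusted over the 58 is 0.118, so none passed. Transcripts annotated as targets of nonsense-mediated decay (NMD) made up 35.02% ± 2.27 of TAF1D reads in vehicle and 45.7% ± 3.26 in treated cells, without overlap. TAF1D transcripts annotated as protein-coding took 27.3% and 24.6%. On the CPM scale, the protein-coding class of TAF1D went from 15.6 ± 2.48 to 32.02 ± 2.87 and the NMD class from 20.01 ± 2.92 to 59.5 ± 5.52, so both classes were higher and the NMD class more so. Most of the shift was in TAF1D-205, named after its values were seen, at 9.33%, 11.8%, 12.2% and 16.6% of TAF1D reads in vehicle and 24.2%, 19.4%, 21.4% and 26.6% in treated libraries.

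**Figure D3:**
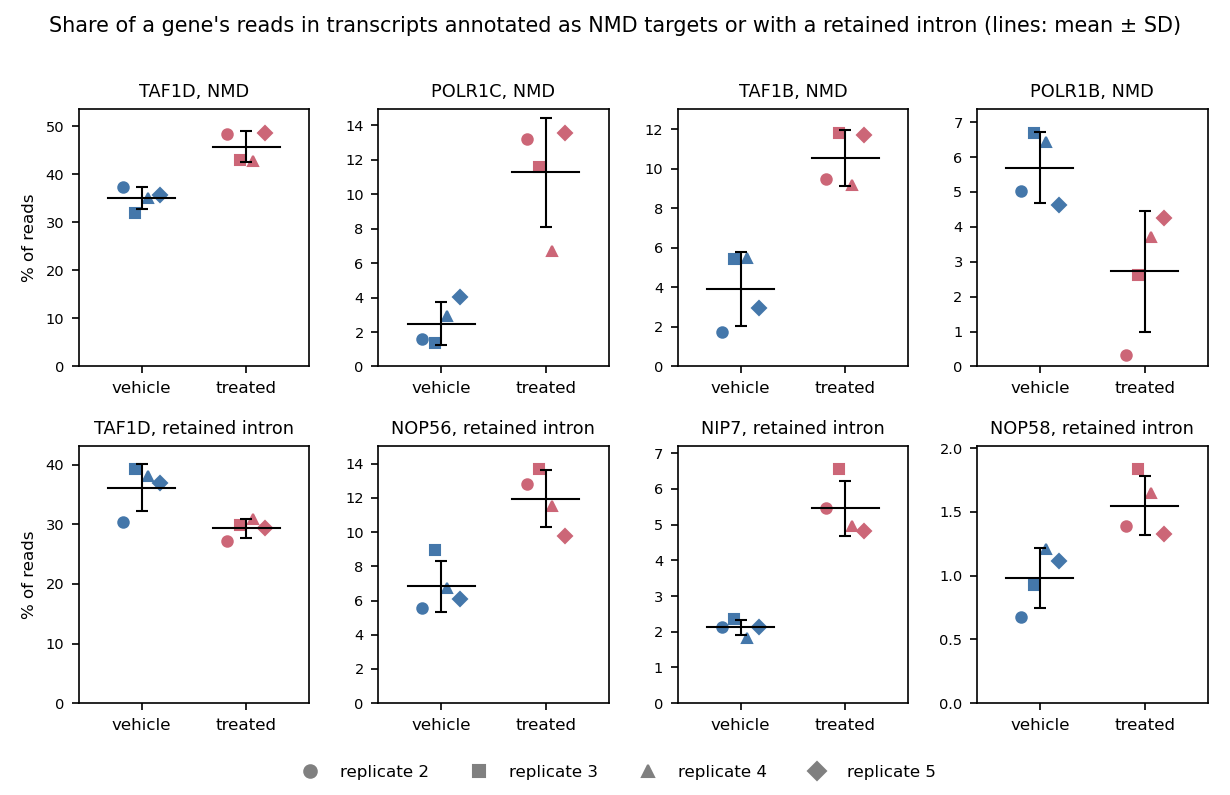
Share of a gene's reads (y axes, percent, from 0) in transcripts annotated as NMD targets (upper row) or with a retained intron (lower row), by library, with mean ± SD. The NMD share of TAF1D goes from 35.02% to 45.7% and that of POLR1C from 2.48% to 11.3%, while the retained-intron share of TAF1D overlaps between groups.

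POLR1C and TAF1B showed the same direction as TAF1D. The NMD share of POLR1C was 1.58%, 1.38%, 2.91% and 4.04% in vehicle and 13.2%, 11.6%, 6.71% and 13.6% in treated libraries. That of TAF1B averaged 3.91% and 10.6%, also without overlap. Both NMD classes were scarce: means went from 0.29 to 1.47 CPM for POLR1C and from 0.48 to 1.45 CPM for TAF1B. The NMD class of TAF1D went from 20.01 to 59.5 CPM. POLR1B went the other way, from 5.69% to 2.73%. Together 3 of the 8 members with a measurable NMD class were higher without overlap and 1 was lower, where 19.9% and 6.65% of 3083 genes did so, and no test sets the members apart from that background. Retained-intron shares were higher without overlap in 3 of 19 members, and lower in none, against 19.4% and 6.61% of 4964 genes: NOP56 (6.84% and 11.96%), NIP7 (2.12% and 5.45%) and NOP58 (0.98% and 1.55%). Protein-coding shares were higher without overlap in 1 of 24 members (TAF1A) and lower in 4 (NOP56, TAF1B, NIP7 and BRIX1), against 7.22% and 18.7% of 7617 genes. Shares of processed transcripts, which lack an annotated reading frame, were higher in 1 of 7 members (BRIX1) and lower in 1 (TAF1A), against 13.1% and 9.32% of 3004 genes. The retained-intron classes of NIP7 (0.55 and 1.12 CPM) and NOP58 (0.56 and 1.26 CPM) were scarce too. For NIP7 the protein-coding class went from 25.5 ± 0.727 to 19.6 ± 1.58 CPM. For NOP56, whose gene total did not pass the test, it went from 70.2 ± 3.42 to 64.8 ± 2.58 CPM.

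UBTF had the largest shift of a single transcript among the members. UBTF-202, a protein-coding transcript named after its values were seen, took 16.5%, 18.4%, 12.8% and 16.8% of UBTF reads in vehicle libraries. In treated libraries it took 37.7%, 32.7%, 38.6% and 43.5%, with the groups far apart. UBTF-204, also protein-coding, averaged 45.5% ± 10.4 and 32.6% ± 5.19, and its groups overlapped. The transcripts found in GENCODE hold 89.7% of UBTF reads. The uncertainty of dividing reads among similar transcripts is not part of any of these values.

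The neighbours of the members in the same pathway were read from 175 related genes in 8 lists. Of these, 36 rose and 44 fell (95 did not pass), against 27.7% and 30.2% of all genes tested, with a median log2 fold change of 0.01, close to the median of −0.02 over all genes. Against a minimum fold of 1.2, 18 were higher and 31 lower, where 18.9% and 21.3% of all genes tested were. With scaling by library totals, 27 were higher and 58 lower. Of 10 further Pol I subunits, subunits shared with other polymerases and factors, 2 rose and 4 fell. POLR1G, a Pol I-specific subunit, stood at 16.8, 14.4, 14.6 and 14.2 CPM in vehicle and 7.66, 7.48, 8.05 and 7.6 CPM in treated libraries, a fall without overlap (log2 −0.96 ± 0.08, adjusted p 4.2e-06). It was the lowest of these 10, whose median was −0.08.

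The other falls there were POLR2F, a shared subunit (log2 −0.33 ± 0.06, adjusted p 0.00111), and, named after their values were seen, POLR1F (log2 −0.47 ± 0.10, adjusted p 0.00285) and the termination factor TTF1 (log2 −0.27 ± 0.08, adjusted p 0.0144). The rises were the shared subunit POLR2H (log2 0.39 ± 0.08, adjusted p 0.00151) and TBP, the common core of SL1 (log2 0.37 ± 0.08, adjusted p 0.00227). TBP thus rose by less than TAF1A and TAF1D, a difference that was not tested. Among 21 genes of RNA polymerase III, which makes 5S rRNA and tRNAs, 4 rose and 8 fell (median 0.02), against 27.7% and 30.2% of all genes tested. On the log2 scale GTF3C6 was at −0.70 ± 0.07, POLR3B at −0.60 ± 0.07, POLR3E at 0.45 ± 0.06 and CRCP at 0.24 ± 0.06.

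Assembly and processing factors beyond the members were mixed as well, with medians of 0.00, 0.02 and 0.07 on the log2 scale in the lists taken in turn here. Their counts stand against 27.7% higher and 30.2% lower of all genes tested. In the small subunit processome 6 of 42 rose (WDR36 0.30 ± 0.07, UTP4 0.25 ± 0.07, log2) and 7 fell (WDR3 −0.48 ± 0.08, UTP3 −0.49 ± 0.08). In late small subunit maturation 4 of 12 rose, among them the kinase RIOK3 (0.70 ± 0.06) and the methyltransferase cofactor TRMT112 (0.35 ± 0.06), and 2 fell, the dimethyltransferase DIMT1 (−0.65 ± 0.09) and BYSL (−0.62 ± 0.11). In large subunit assembly and export 13 of 43 rose, with RSL24D1 at 1.04 ± 0.09 and RSL1D1 at 0.58 ± 0.09, and 6 fell, with LAS1L, the endonuclease that cuts an internal spacer, at −0.51 ± 0.06 and FTSJ3 at −0.44 ± 0.06.

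The processing nucleases held the extremes. POP1, the scaffold protein of RNase MRP and RNase P, was at 20.6 ± 2.3 CPM in vehicle and 7.24 ± 0.221 CPM in treated cells, a log2 change of −1.51 ± 0.09 (adjusted p 5.7e-07). POP5 of the same enzymes was at −0.80 ± 0.10. The exosome core subunits EXOSC8 and EXOSC6 rose, by 1.19 ± 0.06 and 0.69 ± 0.06 on the log2 scale. Over this list of 26 genes, 4 rose and 8 fell, with a median of 0.01, where 27.7% and 30.2% of all genes tested did so. Of 10 snoRNP assembly factors none rose and 5 fell (median −0.18), against the same 27.7% and 30.2% of all genes tested. The ATPase RUVBL1 was at −0.71 ± 0.07 and the DKC1 chaperone SHQ1 at −0.44 ± 0.08. Of the particle proteins, NOP58, FBL and DKC1 were called higher, FBL and DKC1 only under some settings. NOP56, NHP2, NOP10 and GAR1 did not pass.

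MYC, the transcription factor best known for driving this programme, fell in treated cells. Its level was 101, 99.2, 138 and 133 CPM in vehicle and 44.8, 45.7, 51.1 and 39.1 CPM in treated libraries, without overlap (log2 −1.39 ± 0.13, adjusted p 9.8e-06). MYCN was at 70.7, 85.8, 79.8 and 76.7 CPM in vehicle and 36.1, 35.5, 28.7 and 23.1 CPM in treated libraries (log2 −1.34 ± 0.14, adjusted p 1.8e-05), and MYCL fell too (log2 −0.94 ± 0.11, adjusted p 5.1e-05). Their common partner MAX did not pass (log2 −0.18 ± 0.11, adjusted p 0.172).

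The repressors that compete for MAX included risers: MNT was at 49.7 ± 0.847 CPM in vehicle and 99.6 ± 9.67 CPM in treated cells (log2 1.00 ± 0.08, adjusted p 2.5e-06) and MXD1 at 44.1 ± 3.15 CPM in vehicle and 79.9 ± 7.45 CPM in treated cells (log2 0.86 ± 0.08, adjusted p 1.4e-05). In this list of 11 genes 3 rose and 4 fell, against 27.7% and 30.2% of all genes tested, and the median was −0.20. MXI1 and MXD4, named after their values were seen, were the remaining riser and faller. The median of the 34 members stood at 0.04, and at −0.06 with scaling by library totals. A link between the levels of the 3 MYC genes and those of the members was not tested. Reads of the v-myc transgene, if any, cannot be told apart from MYC reads in the deposited counts.

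**Figure D4:**
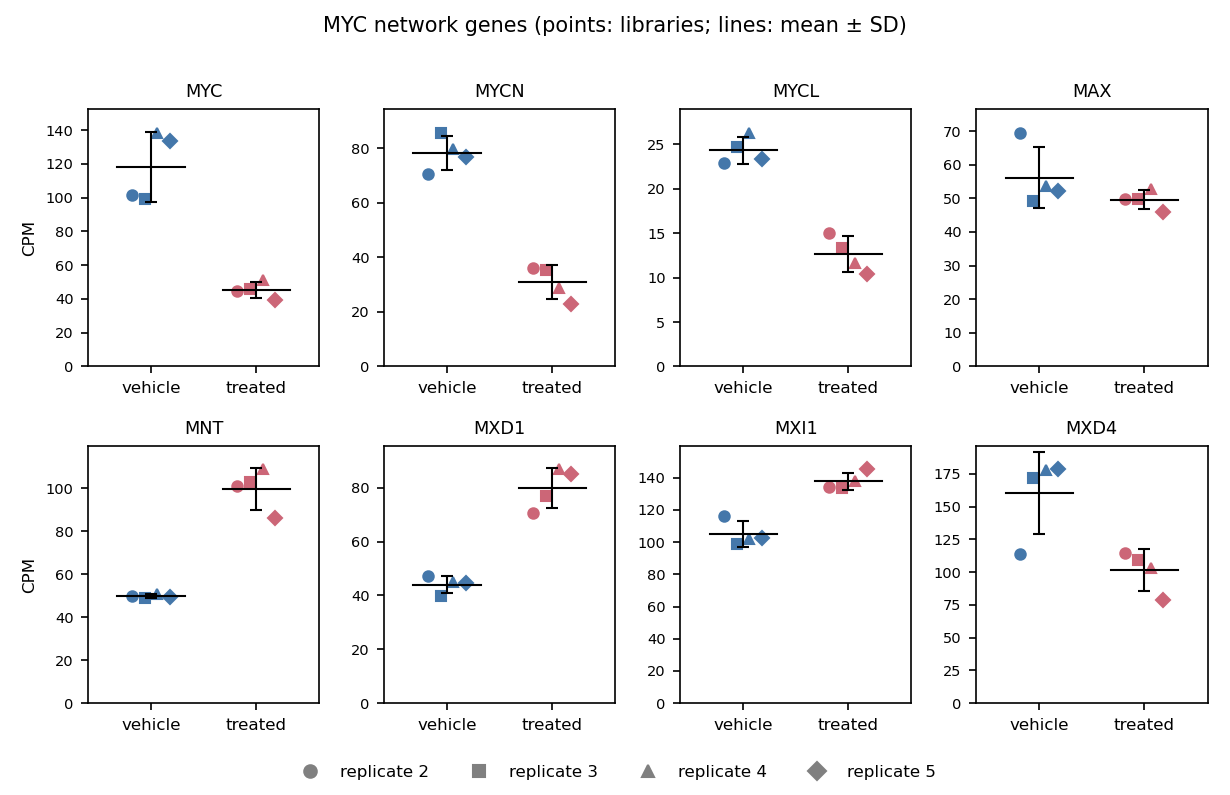
Levels in CPM (y axes from 0) of 8 MYC network genes in the 4 vehicle (blue) and 4 treated (red) libraries, with mean ± SD. MYC, MYCN and MYCL are lower and MNT and MXD1 higher in every treated library than in any vehicle library, and the MAX groups overlap.

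Markers of dividing cells moved with the treatment: 9 of 10 fell and none rose, against 30.2% lower and 27.7% higher of all genes tested. Their summed level was 394 to 525 CPM in vehicle and 272.5 to 291.5 CPM in treated libraries, with MKI67 at 87.6 ± 23.8 CPM in vehicle and 37.9 ± 3.7 CPM in treated cells. Their part in the falls of RRS1, POLR1A, UBTF, NOP14, WDR12, NIP7 and BRIX1 was not tested. Of 5 neural progenitor markers, 3 rose and 1 fell, with a summed level of 281 to 331 CPM in vehicle and 278 to 318 CPM in treated libraries. Neuronal markers fell in 5 of 9 cases and rose in 2. SLC1A3, a glutamate transporter counted among astrocyte markers, rose (log2 3.26 ± 0.12, adjusted p 2.9e-08), while GFAP stayed at or near 0. The oligodendrocyte markers OLIG1 and OLIG2 fell.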

How the data were processed

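RNA was measured in 8 libraries, 4 treated and 4 vehicle. The authors deposited gene and transcript tables with estimated counts, effective lengths (another kind of value, in bases) and TPM, per the file headers. The submitters' processing notes name hg38, StringTie, SAMtools and HISAT2, without versions. No source used here names the quantifier. The authors' deposited table of coding genes gives a log2 fold change and a false discovery rate, a p-value adjusted for all its genes.

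Estimated counts (93718000 to 110021000 reads in each library) were rounded, filtered with filterByExpr, scaled with TMM and tested with edgeR 4.0.16 in R 4.3.3 (quasi-likelihood F-test, Benjamini-Hochberg adjusted over 19785 genes, threshold 0.05). The SE is the absolute log2 fold change divided by the root of F, so it restates the test. CPM use TMM-scaled library sizes. Transcript usage was tested with diffSpliceDGE. Both tests were tested on simulated data. Alternatives were DESeq2 1.42.0, RLE and total scaling, other filters, a length offset, a minimum fold, a replicate block and leaving out each library. Gene and transcript annotation came from GENCODE release 29, symbols were found for 62684 of 62826 genes, and promoters came from RefSeq.

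Members and lists were chosen with earlier results of these data known. All 34 members are named, with up to 2 rising and 2 falling genes of each related list by smallest adjusted p, and MYC, MYCN, MYCL and MAX. Replicate libraries of a group differed by more than sampling noise in every pair (chi-square per degree of freedom 14.2 to 446), and p-values measure the spread between these batches.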

Additional observations from a re-analysis of the deposited data

Results flagged for a closer look

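In each group of 4 libraries, a member's level was set against the other 3 by the gap to its nearest neighbour over the range, against Dixon's critical value at the 95% level. Of 68 groups 8 passed it, where chance alone gives about 1 in 20, and 4 of the 8 were vehicle replicate 2.

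That library held NCL at 926 CPM (median of the others 579), POLR1D at 99.2 CPM (others 79.4), GNL3 at 105 CPM (others 87.0) and POLR1E at 37.5 CPM (others 43.0). Its share of mitochondrially encoded mRNA was 11.5%, the highest of all 8 libraries, and the part of that in these levels was not tested. POLR1A stood low in treated replicate 2, at 88.2 CPM (others 98.3), and NHP2 stood high there, at 49.8 CPM (others 47.6). TAF1B was high in vehicle replicate 3, at 13.0 CPM (others 11.9). BOP1 was low in treated replicate 5, at 51.9 CPM (others 71.8). None of these levels belongs to TAF1A, TAF1D, NOB1, NOP58, NOP2 or RRS1.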

How the results depend on the processing

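Over 16 alternatives for each of the 34 members, 469 of 544 log2 fold changes kept their direction and side of the threshold, 43 lost the call, 12 gained it and 20 changed sign. These 20 belong to 10 members that did not pass the test, before or after the change. With library totals the reversed values were −0.0071 for TAF1C, −0.064 for NOP56, −0.051 for NHP2, −0.082 for NOP10, −0.015 for NOLC1, −0.073 for RRP9 and −0.038 for PES1. With the length offset NOLC1 was at −0.045 and GNL3 at 0.021, and GNL3 was at 0.0041 with RLE factors and with DESeq2. On leaving out single libraries the values ran from −0.028 to 0.21 for TAF1C, −0.048 to 0.094 for NHP2, −0.0038 to 0.054 for NOP10, −0.12 to 0.0069 for GAR1, −0.066 to 0.048 for GNL3, −0.066 to 0.11 for RRP9 and −0.20 to 0.045 for LTV1. Members called higher (8) and lower (7) were 5 and 9 with library totals, 5 and 1 with a minimum fold of 1.2, and 5 to 9 and 4 to 8 on leaving out single libraries. Library totals gave 4280 higher and 7023 lower genes, against 5484 and 5977, with a median log2 fold change of −0.12 over all genes and −0.06 over the members. Related genes called higher were 18 with the minimum fold, against 36. Members with changed transcript usage (0) were 12 with the stricter filter, 7 with the F test and 0 to 3 on leaving out single libraries.

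The sample titles give the numbers as diff2 to diff5 in both groups, which may mark a shared differentiation. The series text does not state that a number pairs the groups, so the main test used no pairing. Same-numbered libraries did not deviate together in every pair (r from −0.30 to 0.28), which does not settle whether they are paired. With the number as a replicate block, 5163 genes were higher and 5601 lower, 8 members were higher and 7 lower, and 1 member changed transcript usage. Under the block DKC1 (adjusted p 0.0952) and BRIX1 (0.0666) lost the call by edgeR, and POLR1B (0.0293) and RRN3 (0.0471) gained it. The causes were not tested. Antisense reads, pseudogenes and the division of reads among transcripts limit the single-gene values.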
